A study of Mus musculus with 8 samples.

Results

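The p53 network was followed through 10 genes: Trp53, its inhibitors Mdm2 and Mdm4, and the targets Cdkn1a, Ccng1, Sesn2, Gdf15, Phlda3, Trp53inp1 and Perp. p53, the protein encoded by Trp53, is a transcription factor that is stabilised when DNA is damaged or replication is disturbed and then switches on genes for growth arrest, repair and cell death. Mdm2, an E3 ubiquitin ligase, and its relative Mdm4 hold p53 in check, and since p53 drives Mdm2 the pair forms a feedback loop. Of the direct targets, Cdkn1a encodes p21, the inhibitor that stops cyclin-dependent kinases, Ccng1 the atypical cyclin G1, Sesn2 a stress sensor that restrains mTORC1, Gdf15 a secreted stress cytokine, Phlda3 an inhibitor of Akt, Trp53inp1 a nuclear protein that promotes p53-driven arrest and death, and Perp a membrane protein of desmosomes and apoptosis. The genes were chosen by name, and all probe sets that the platform annotation gives to one of them alone were taken. That gave 18 probe sets of 8 genes among 45101 on the array: 3 for Mdm2, 4 for Mdm4, 2 for Cdkn1a, 3 for Ccng1, 2 for Sesn2, 1 for Phlda3, 2 for Trp53inp1 and 1 for Perp. No probe set bears the symbol Trp53 or Gdf15 in the annotation used here, so the level of p53 mRNA itself was not analysed here. Of the 18 probe sets, 15 from 7 genes lay above a log2 signal of 5 in at least 2 arrays and were tested among 21773 probe sets. The other 3, the only one of Perp and the weakest of Mdm2 and of Trp53inp1, are given as levels.

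Of the 2 mouse lines, one was the lung tumour LLC (Lewis lung carcinoma) and the other the colon tumour colon26, both carrying EGFP under the mouse PSF1 promoter. PSF1 is encoded by Gins1 and is a subunit of the GINS complex at replication forks. The 4 groups were EGFP-high and EGFP-low cells sorted from LLC tumours 4 weeks after subcutaneous injection, and EGFP-high and EGFP-low cells sorted from colon26 tumours 2 weeks after it. Each group held 2 biological replicates by its labels, 1 array each, numbered 1 and 2. Whether they came from separate tumours, which mice were used and whether each line was a clone is not stated in the labels. The p-values therefore measure the spread between these samples, which may be technical. The colon26 samples' descriptions name LLC, and the titles and cell line were followed. Line and weeks after injection go together, so a difference between LLC and colon26 cannot be told apart from one of tumour age.

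The arrays showed the sort in Gins1, whose log2 signal was 8.42 and 8.51 in LLC high against 7.23 and 7.14 in LLC low, and 8.29 and 8.38 in colon26 high against 7.56 and 6.97 in colon26 low. Among 8 epithelial markers, Krt8 was at 12.36 to 12.80 in LLC and 5.31 to 5.95 in colon26. Krt20 was at 3.63 to 4.06 in LLC and 11.60 to 12.27 in colon26. Krt18 was at 8.43 to 9.14 in LLC and 3.84 to 5.05 in colon26. Over the 8 arrays Epcam was at 5.99 to 7.18, Cldn4 at 4.39 to 5.43 and Krt19 at 3.85 to 4.80. Krt7 was at 3.58 to 4.18 and Cdh1 at 2.83 to 3.88. The arrays numbered 1 differed from those numbered 2 in RNA representation: 4 control transcripts had a median 3′ minus 5′ log2 signal of 2.41 to 2.70 on the 4 arrays numbered 1 and −0.01 to 0.35 on the 4 numbered 2. The sorted fractions also differed in markers of other cell types. The summed linear signal of 12 macrophage and monocyte markers was 786 to 894 in LLC high against 2361 to 2656 in LLC low, and 1428 to 2231 in colon26 high against 6763 to 10926 in colon26 low. For 10 fibroblast markers it was 9881 to 10475 in LLC high against 29569 to 42451 in LLC low, and 33435 to 34837 in colon26 high against 39815 to 48996 in colon26 low. In such bulk samples, fewer cells of a type and less RNA per cell cannot be told apart. In LLC high cells the group means of the 10 fibroblast markers ran from 3.63 (Fap) to 12.51 (Col3a1). In colon26 high cells they ran from 4.95 (Fap) to 13.20 (Dcn). Which cells gave these signals was not tested.

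p53 binds DNA as a tetramer at a pair of decamers, each called a half-site. Promoter windows from RefSeq (GRCm38.p6, 250 bases before to 50 after a gene start) were found for 6 of the 8 genes with a probe set; Trp53inp1 and Perp had no entry. They were searched for the p53 half-site consensus, which reads the same on both strands. Of 32851 windows of this length, 8.36% held an exact half-site, and 1.09% held a full site, meaning 2 half-sites at most 13 bases apart with at most 1 mismatch in all; the mismatch limit was chosen after the windows had been searched. Exact half-sites were found in windows of 3 genes: Cdkn1a, Ccng1 and Mdm2. The windows of Cdkn1a (the upstream one of 2 starts) and Ccng1 are shown because both genes were lower in LLC at their leading probe set, as described below, and each window holds a full site. That of Mdm2 is shown because it held a lone half-site without a full site. Whether this half-site has a part in the feedback loop was not tested. The window of Phlda3 is shown as an example without a match, from a gene lower in LLC within each replicate number. Sesn2 1451599_at and some Mdm4 probe sets were also lower in that way, and the windows of these genes held no match either. Capitals mark exact half-sites and the full site with the fewest mismatches in a window, 5′ to 3′ on the gene's strand.
Cdkn1a, chr17:29090729-29091028, plus strand: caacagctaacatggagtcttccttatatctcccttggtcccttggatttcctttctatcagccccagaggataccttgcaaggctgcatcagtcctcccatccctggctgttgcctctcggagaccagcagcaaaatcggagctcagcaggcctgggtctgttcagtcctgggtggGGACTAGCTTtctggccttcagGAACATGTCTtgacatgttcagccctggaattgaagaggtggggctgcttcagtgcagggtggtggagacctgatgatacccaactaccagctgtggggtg
Ccng1, chr11:40755237-40755536, minus strand: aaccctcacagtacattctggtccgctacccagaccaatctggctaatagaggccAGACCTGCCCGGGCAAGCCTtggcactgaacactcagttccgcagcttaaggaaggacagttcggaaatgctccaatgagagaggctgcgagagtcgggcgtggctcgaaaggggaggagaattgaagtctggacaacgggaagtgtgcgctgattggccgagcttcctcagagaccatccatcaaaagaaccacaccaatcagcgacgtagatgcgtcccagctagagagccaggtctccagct
Mdm2, chr10:117710709-117711008, minus strand: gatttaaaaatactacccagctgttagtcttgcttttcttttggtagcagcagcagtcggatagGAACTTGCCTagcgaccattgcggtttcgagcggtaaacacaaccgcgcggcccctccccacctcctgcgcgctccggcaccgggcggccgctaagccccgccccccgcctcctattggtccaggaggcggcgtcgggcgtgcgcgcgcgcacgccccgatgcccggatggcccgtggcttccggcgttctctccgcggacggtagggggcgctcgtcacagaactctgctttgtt
Phlda3, chr1:135765835-135766134, plus strand: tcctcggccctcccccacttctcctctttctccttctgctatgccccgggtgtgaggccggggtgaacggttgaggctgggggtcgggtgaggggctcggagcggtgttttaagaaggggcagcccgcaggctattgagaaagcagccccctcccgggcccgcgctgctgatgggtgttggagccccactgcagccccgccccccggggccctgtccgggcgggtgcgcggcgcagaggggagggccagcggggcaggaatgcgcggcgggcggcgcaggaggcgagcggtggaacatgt
In Cdkn1a the half-sites began 73 and 51 bases before the upstream start, in Ccng1 the full site began 195 bases before the start, and in Mdm2 a lone half-site began 186 bases before it. In Cdkn1a the decamer tgacatgttc, directly after the second half-site, has 1 mismatch. It makes a further full site with that half-site and is left in lower case. A match is a run of letters and not evidence of binding, and a window without one says nothing of p53 at more distant sites.

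In the comparison of the lines, the p53 targets Cdkn1a, Ccng1 and Trp53inp1 were lower in LLC than in colon26, in EGFP-high and in EGFP-low cells alike. At their leading probe sets, those with a gene's highest mean, the signal was 3.14-fold to 8.36-fold lower in LLC. Mdm2, Sesn2 and Phlda3 were not called in either sort. A probe set is called where limma's adjusted p over all 21773 probe sets was under 0.05, and differences are LLC minus colon26 on the log2 scale. Among EGFP-high cells 5 of 15 probe sets were lower in LLC, where 5.23% of all probe sets tested were, and 0 of 15 were higher, where 3.51% were. Among EGFP-low cells 6 of 15 were lower, where 5.58% of all were, and 0 were higher, where 4.95% were. The median difference of the 15 was −0.83 in EGFP-high and −1.31 in EGFP-low cells, beside −0.06 and −0.0039 over all probe sets tested. Probe sets of 1 gene are not independent, and 1 of those called passed the filter on low signal through its colon26 arrays alone.

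**Figure D1:**
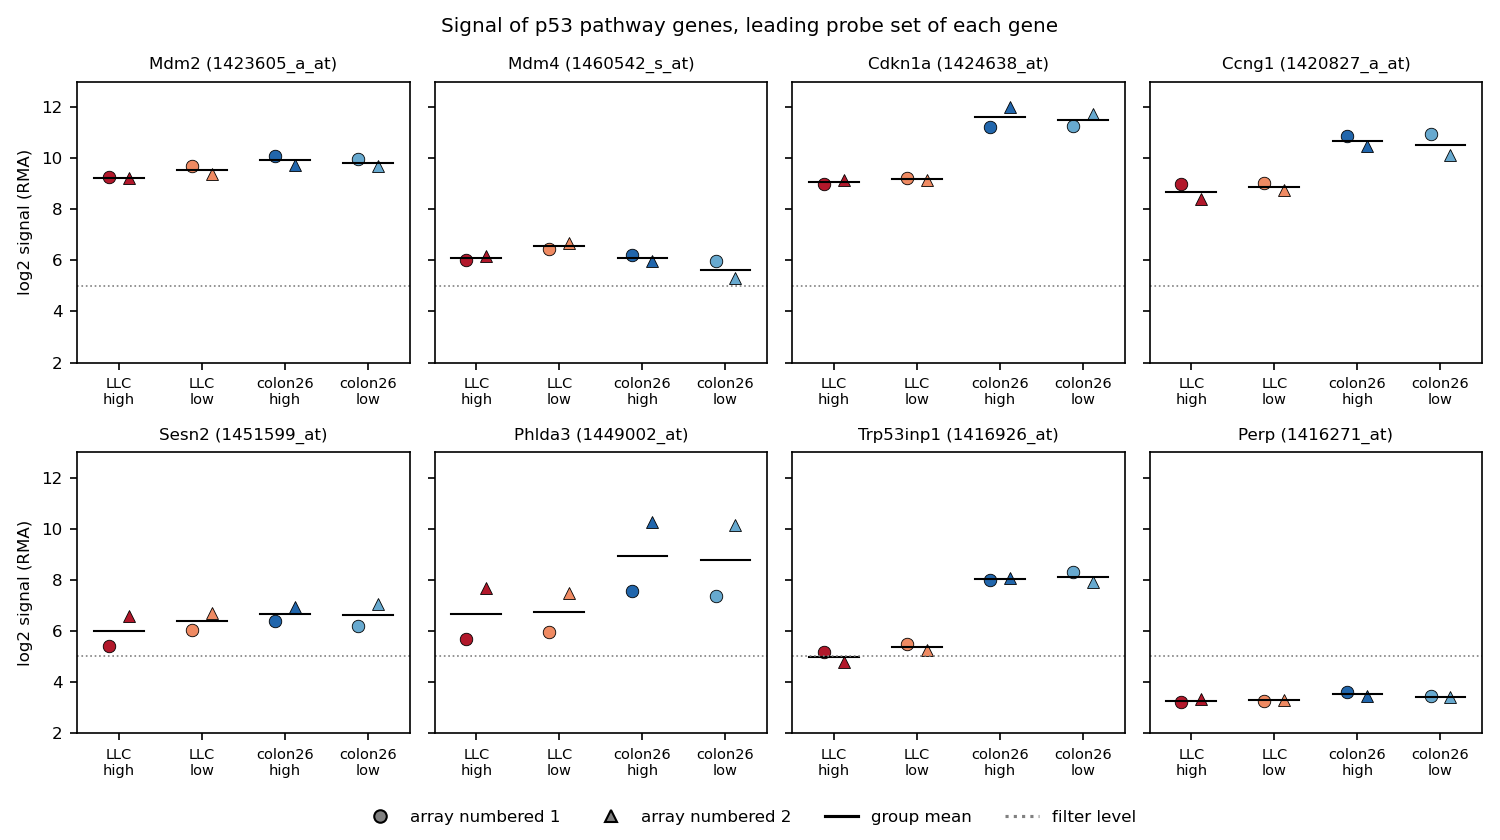
Log2 RMA signal of the leading probe set of each of 8 genes on the 8 arrays; circles are arrays numbered 1, triangles those numbered 2, bars the means of 2 arrays, and the dotted line the filter level of 5. Cdkn1a, Ccng1, Trp53inp1, Mdm2 and Perp were lower on all 4 LLC arrays than on all 4 colon26 arrays, as were 17.5% of all probe sets tested. Of these genes, Mdm2 was not called and Perp, under the filter level, was not tested. The high and low groups of a line lie close together.

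Cdkn1a was read by 2 probe sets. At 1424638_at its log2 signal was 8.98 and 9.13 in LLC high against 11.21 and 11.99 in colon26 high cells, and 9.21 and 9.13 in LLC low against 11.26 and 11.73 in colon26 low cells. All 4 LLC arrays lay close together and below the lowest colon26 array. In EGFP-high cells the difference was −2.54 (SE 0.34, limma adjusted p = 0.0075), a signal 5.83-fold lower in LLC, and in EGFP-low cells it was −2.32 (SE 0.34, limma adjusted p = 0.0108), or 5.01-fold lower. The first call was lost without the LLC high array numbered 1 (adjusted p = 0.0624) or 2 (0.0520), and the second without the LLC low array numbered 1 (0.0729) or 2 (0.0813) or the colon26 low array numbered 2 (0.0591). At the second probe set, 1421679_a_at, the arrays numbered 1 and 2 were far apart, at 4.68 and 7.59 in LLC high, 5.76 and 9.43 in colon26 high, 4.54 and 7.13 in LLC low, and 5.33 and 9.03 in colon26 low. Within a number LLC was lower in each of the 4 matched differences, which ran from −0.79 to −1.90. The groups overlap, and the probe set was not called (limma adjusted p = 0.762 in EGFP-high and 0.735 in EGFP-low cells). With the replicate number as a block it was called, at adjusted p = 0.00852 and 0.0102.

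Ccng1 had 3 probe sets, and all 3 were lower in LLC in both sorts. At the leading one, 1420827_a_at, the signal was 8.99 and 8.39 in LLC high against 10.87 and 10.49 in colon26 high, and 9.01 and 8.75 in LLC low against 10.95 and 10.11 in colon26 low. The difference was −1.99 (SE 0.39, limma adjusted p = 0.0294) in EGFP-high and −1.65 (SE 0.39, limma adjusted p = 0.0484) in EGFP-low cells, or 3.98-fold and 3.14-fold lower in LLC. The other two probe sets gave −2.30 and −2.41 in EGFP-high and −2.40 and −2.21 in EGFP-low cells, at adjusted p between 0.0105 and 0.0298. These calls depended on single arrays: with 1 array left out, 1420827_a_at was called in 2 of 8 fits in EGFP-high and 0 of 8 in EGFP-low cells, 1450016_at in 0 and 4, and 1450017_at in 5 and 6. The difference stayed negative in all of those fits, between −2.77 and −1.23.

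Trp53inp1 showed the largest difference of the 15 member probe sets tested. At 1416926_at it was at 5.17 and 4.76 in LLC high against 8.0 and 8.06 in colon26 high, and at 5.5 and 5.25 in LLC low against 8.30 and 7.92 in colon26 low. The difference was −3.06 (SE 0.27, limma adjusted p = 0.00174), or 8.36-fold lower in LLC, in EGFP-high cells and −2.73 (SE 0.27, limma adjusted p = 0.00279), or 6.66-fold lower, in EGFP-low cells. The LLC signals lie near the filter level, where background limits how low a value can read, so the fold is not exact. Both calls held with any 1 of the 8 arrays left out (adjusted p up to 0.0219 and 0.0333). The second probe set, 1416927_at, did not pass the filter, at 3.78 to 3.94 in LLC and 4.27 to 4.54 in colon26.

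Phlda3 also had a wide gap between the arrays numbered 1 and 2. Its signal was 5.67 and 7.67 in LLC high against 7.56 and 10.27 in colon26 high, and 5.97 and 7.47 in LLC low against 7.36 and 10.16 in colon26 low, with the array numbered 1 given first. Compared within a number, LLC minus colon26 was −1.89 and −2.59 in EGFP-high and −1.38 and −2.68 in EGFP-low cells. The mean differences of −2.24 and −2.03 were not called (limma adjusted p = 0.422 and 0.411), and were called with the replicate number as a block (adjusted p = 0.00177 and 0.00249).

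**Figure D2:**
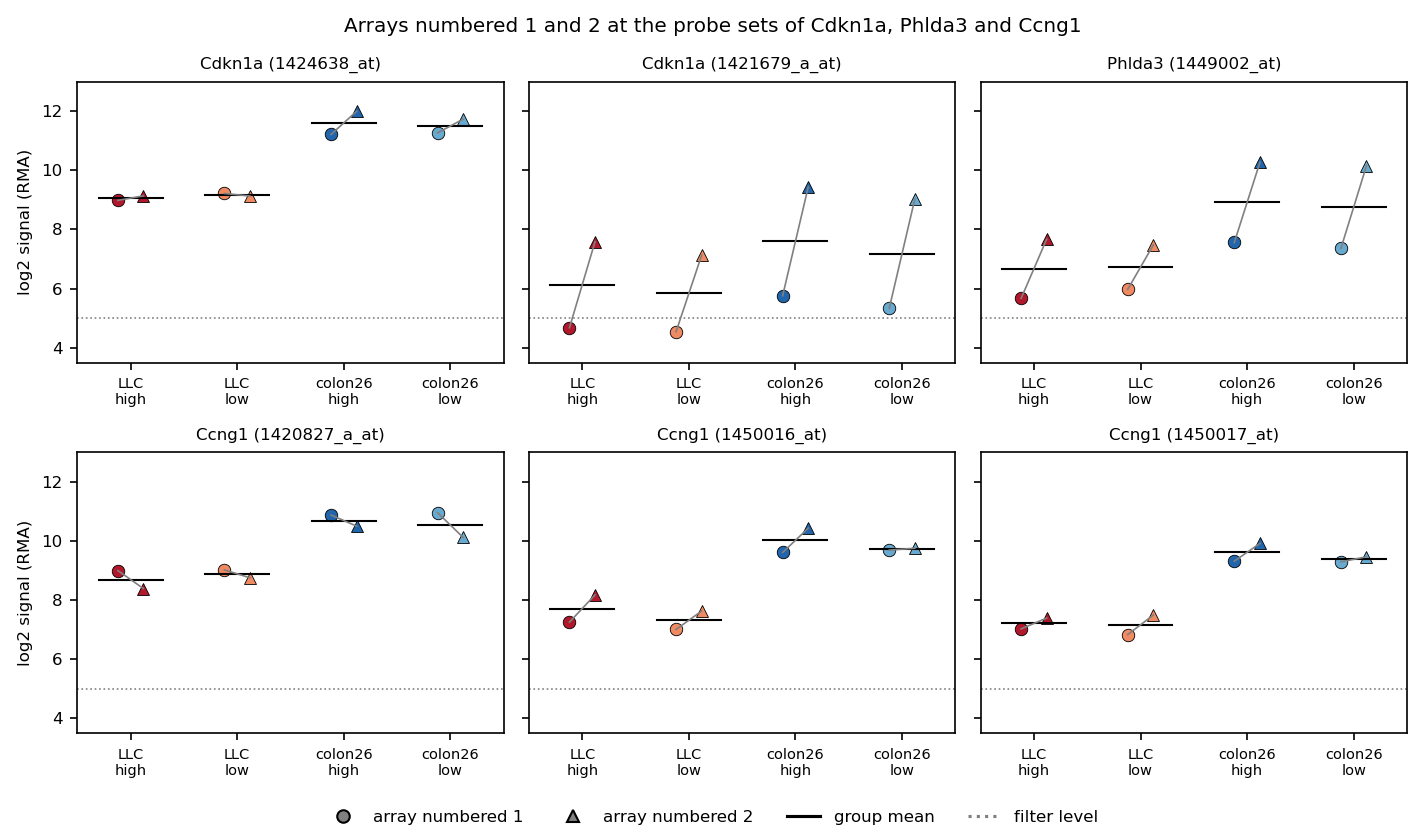
Log2 RMA signal at 6 probe sets of Cdkn1a, Phlda3 and Ccng1 on the 8 arrays; a grey line joins the arrays numbered 1 (circle) and 2 (triangle) of a group, and bars are group means. At Cdkn1a 1421679_a_at the array numbered 2 was higher by 2.59 to 3.69 in every group and at Phlda3 by 1.5 to 2.80, while at Cdkn1a 1424638_at the numbers differed by at most 0.78.

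Among the regulators, Mdm2 at its leading probe set 1423605_a_at was at 9.27 and 9.20 in LLC high against 10.09 and 9.74 in colon26 high, and at 9.67 and 9.36 in LLC low against 9.95 and 9.70 in colon26 low. All 4 LLC arrays lay below all 4 colon26 arrays, as they did for 9 of the 15 member probe sets tested and for 17.5% of all probe sets, but the differences of −0.68 and −0.31 were not called (limma adjusted p = 0.193 and 0.531). Of those 9, Mdm4 1453982_at and 1419558_at passed the filter only with their colon26 arrays, which favours this order. The second Mdm2 probe set, 1427718_a_at, gave −0.83 and −0.18 (adjusted p = 0.635 and 0.921), and the third, 1457929_at, stayed at 3.43 to 4.04. The Mdm4 probe sets did not run together. In EGFP-low cells 1460542_s_at was at 6.45 and 6.67 in LLC against 5.97 and 5.31 in colon26, a difference of 0.92 (adjusted p = 0.114), and 1458223_at was at 4.97 and 5.53 in LLC against 5.95 and 7.18 in colon26, a difference of −1.31 (adjusted p = 0.123). Another, 1453982_at, was called lower in LLC among EGFP-low cells at −1.22 (SE 0.27, limma adjusted p = 0.0415), with 3.91 and 3.66 in LLC against 4.82 and 5.20 in colon26; it is the probe set that passed the filter through colon26 alone, and the call was lost with any 1 array left out (adjusted p from 0.0565 to 0.225). The last, 1419558_at, gave −0.76 and −0.69 (adjusted p = 0.139 and 0.142). No single direction can therefore be given for Mdm4.

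Sesn2 did not pass the test between the lines, and Perp lay under the filter. Sesn2 at 1451599_at was at 5.41 and 6.56 in LLC high against 6.38 and 6.95 in colon26 high, and at 6.04 and 6.71 in LLC low against 6.19 and 7.03 in colon26 low. The groups overlap in both sorts, and the difference was −0.68 (95% interval −1.95 to 0.60) in EGFP-high and −0.24 (−1.51 to 1.04) in EGFP-low cells. The other Sesn2 probe set gave −0.45 and 0.04. Perp stayed between 3.22 and 3.60 on all 8 arrays and was not tested.

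**Figure D3:**
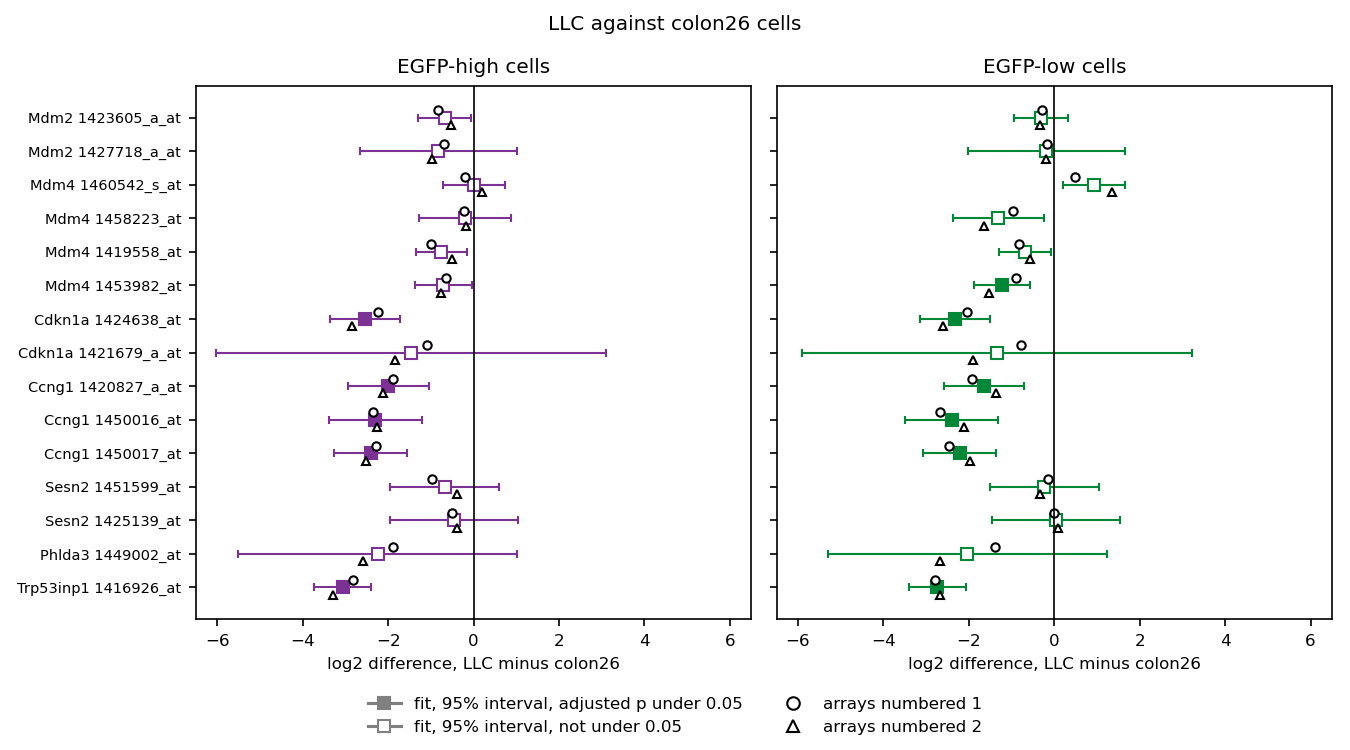
LLC minus colon26 on the log2 scale for 15 probe sets, in EGFP-high (left) and EGFP-low cells (right); squares with bars are the limma difference and its 95% interval, filled where the adjusted p was under 0.05, and circles and triangles are the differences between arrays numbered 1 and numbered 2. All single differences lie left of 0 for 13 of the 15 probe sets, those of Cdkn1a, Ccng1, Phlda3 and Trp53inp1 among them. The share of all probe sets for which this holds was not counted. The wide intervals of Cdkn1a 1421679_a_at and Phlda3 go with the gap between the numbers.

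The replicate number carried much of the spread in this comparison. Deviations of same-numbered arrays from their group means correlated across probe sets at r = 0.842 between LLC high and colon26 high and at r = 0.751 between LLC low and colon26 low. With the number as a block, 12 of 15 member probe sets were lower and 0 higher in LLC among EGFP-high cells. That fit called 34.9% of all probe sets in either direction. Among EGFP-low cells 10 were lower and 1 higher, where 42.7% of all were called in either direction. The calls gained were those of Cdkn1a 1421679_a_at and Phlda3 in both sorts, both Mdm2 probe sets, 1 of Sesn2 and 2 of Mdm4 in EGFP-high cells, and 3 of Mdm4 in EGFP-low cells, of which 1460542_s_at was higher. Without a block the high and low arrays of a pair share their deviations, so the spread rests on fewer independent arrays than the fit counts. Markers of other cell types differed between the lines as well. Among EGFP-high cells 4 of 10 fibroblast, 0 of 11 macrophage and 0 of 6 endothelial markers were lower in LLC, where 5.91% of all genes were. Among EGFP-low cells it was 3 of 10 fibroblast, 4 of 11 macrophage (median −1.63) and 2 of 6 endothelial markers, where 6.58% of all genes were. Of those called there, Cdh5, Emcn and Cd163 had LLC group means under the filter level of 5 in both sorts, so the filter favours their difference. The part of the markers of other cell types in the member differences was not tested.

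The study sorted EGFP-high and EGFP-low cells to ask whether cells with an active PSF1 promoter carry a stem-cell-like profile, and the same arrays give the p53 genes in both fractions. No member was called. In LLC 0 of 15 probe sets passed limma with the pair as a block, where 9.42% of all probe sets did, with 1 at an unadjusted p under 0.05. In colon26 0 of 15 passed, where 2.5% of all did, with 2 at an unadjusted p under 0.05. Over both lines it was 0 of 15, where 10.2% of all did, with 1 at an unadjusted p under 0.05. The median change of the 15 was −0.12 for LLC, 0.15 for colon26 and −0.02 for their mean, beside 0.02, 0.10 and 0.04 over all probe sets.

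Cdkn1a did not pass the test at either probe set. At 1424638_at, with the arrays given above, high minus low was −0.23 and 0.0055 in LLC and −0.06 and 0.26 in colon26. Over both lines the change was −0.0050 (95% interval −0.31 to 0.30), and the groups overlap in each line. At 1421679_a_at the 4 pairs gave 0.14, 0.46, 0.42 and 0.41, higher in 4 of 4, and the mean of 0.36 (SE 0.13) did not pass (limma adjusted p = 0.126). The 2 probe sets thus differ in the sign of their mean, and neither was called.

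The other targets did not pass the test either. Over both lines, high minus low of Ccng1 was −0.02, 0.35 and 0.14 at its 3 probe sets (limma adjusted p from 0.200 to 0.952), that of Phlda3 0.05 (95% interval −0.26 to 0.37), that of Sesn2 −0.17 and −0.07, and that of Trp53inp1 −0.25 (95% interval −0.56 to 0.06, adjusted p = 0.309). In LLC the high and low groups of Trp53inp1 did not overlap, with high minus low at −0.33 and −0.49 in the pairs, but the change of −0.41 was not called (adjusted p = 0.239). Over both lines 9 of 11 macrophage markers and 10 of 10 fibroblast markers tested fell in EGFP-high cells, where 4.8% of all genes did. Their median changes were −2.32 and −1.47. Of these markers, Fcgr3, C1qa, Cd163, Thy1 and Fap had group means under the filter level of 5 in EGFP-high cells of both lines, so the filter favours their fall. Line by line, 8 of 10 fibroblast markers fell in LLC (median −1.99), where 5.36% of all genes did. In colon26 it was 3 of 10 (median −0.52), where 1.36% did.

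**Figure D4:**
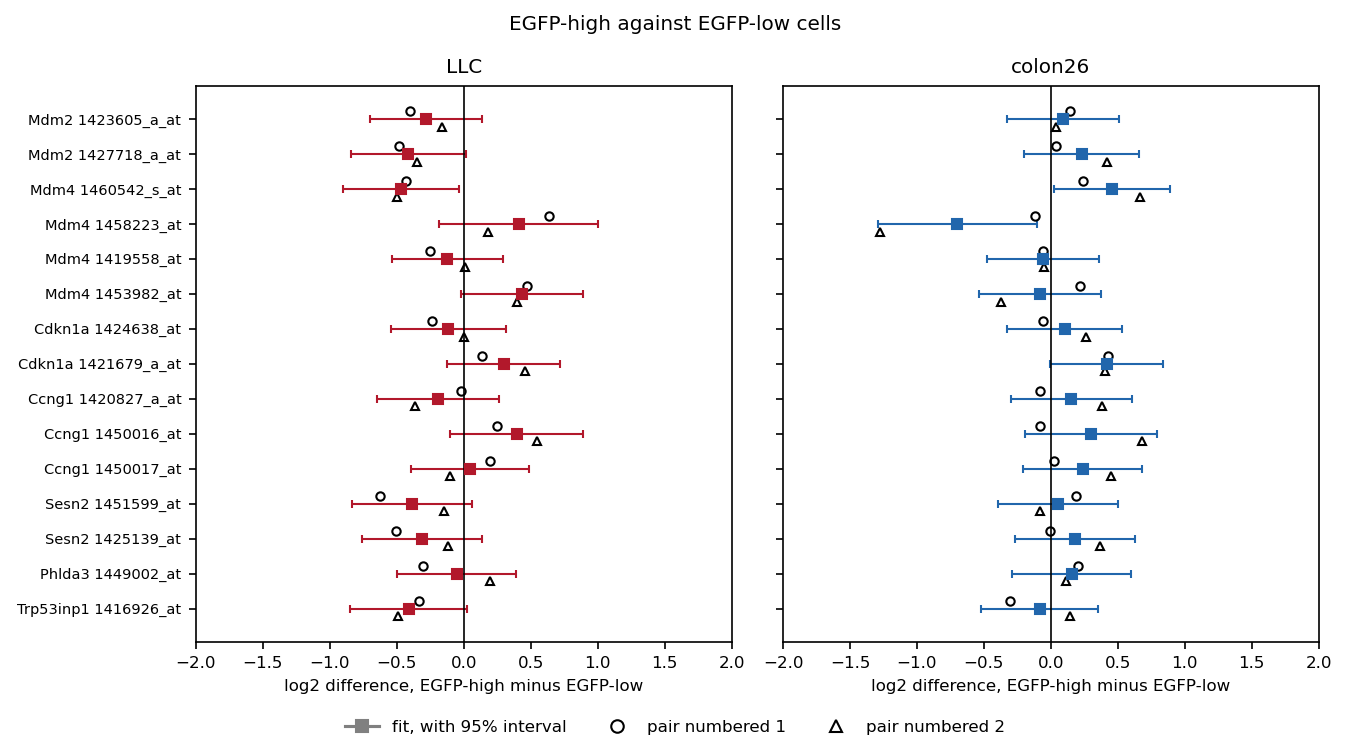
Log2 change of 15 probe sets, EGFP-high minus EGFP-low, in LLC (left) and colon26 (right); squares with bars are the limma change with the pair as a block and its 95% interval, and circles and triangles are the pairs numbered 1 and 2. The changes lie between −0.70 and 0.45, and none had an adjusted p under 0.05.

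At some probe sets of Mdm2 and Mdm4 the sign of high minus low was opposite in the lines, but the test of that difference was not passed. Mdm2 at 1423605_a_at was at −0.40 and −0.16 in LLC and at 0.14 and 0.04 in colon26, pair by pair, and at 1427718_a_at −0.48 and −0.35 in LLC and 0.04 and 0.42 in colon26. Mdm4 at 1460542_s_at was at −0.43 and −0.50 in LLC and at 0.24 and 0.67 in colon26, whereas 1458223_at was at 0.64 and 0.18 in LLC and at −0.12 and −1.28 in colon26. The LLC change minus the colon26 change was −0.92 (95% interval −1.53 to −0.31, limma adjusted p = 0.173) at the first Mdm4 probe set and 1.11 (0.27 to 1.95, adjusted p = 0.228) at the second. Of the 15 probe sets 0 passed this test in limma, where 0.795% of all did, with 3 at an unadjusted p under 0.05.

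Other genes of the pathway were taken from 5 lists by role, 1 probe set a gene, and set beside all 12177 genes tested that way, of which 5.91% were lower and 3.67% higher in LLC among EGFP-high cells, and 6.58% lower and 4.76% higher among EGFP-low cells. Of 10 targets in apoptosis, 1 was called lower in LLC among EGFP-high cells and 2 among EGFP-low cells. Fas, the death receptor, was called in both sorts, with 3.82 and 3.82 in LLC high against 6.47 and 6.01 in colon26 high. Its 4 LLC arrays lay under the filter level of 5 and it was tested through colon26 alone, so it had to differ and no size is given. Siva1, a death adaptor, was lower in LLC among EGFP-low cells, at −1.58 (limma adjusted p = 0.0488), with 8.06 and 8.37 in LLC against 9.62 and 9.98 in colon26. The list median was −0.49 in EGFP-high and −0.59 in EGFP-low cells, beside −0.09 and −0.07 over all genes.

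Targets in growth arrest and repair went both ways between the lines. Among all genes 5.91% were lower and 3.67% higher in LLC in EGFP-high cells, and 6.58% and 4.76% in EGFP-low cells. Of 13 tested, 1 was called lower and 2 higher in LLC in each sort. Plk2, a polo-like kinase, was the one lower, with 4.18 and 4.26 in LLC high against 9.33 and 10.54 in colon26 high. It too was tested through colon26 alone, with all 4 LLC arrays under 5, so no size is given. Sesn1, a relative of Sesn2, was higher in LLC by 1.62 and 1.94 (limma adjusted p = 0.0243 and 0.013). Gadd45a, a stress sensor of growth arrest, was higher in LLC by 2.44 among EGFP-high and 5.17 among EGFP-low cells (adjusted p = 0.0328 and 0.00225). Its signal was 7.71 and 8.45 in LLC high against 5.56 and 5.71 in colon26 high, and 9.48 and 10.82 in LLC low against 5.02 and 4.95 in colon26 low, where the signal is near the filter level. So the direction of Cdkn1a, Ccng1 and Trp53inp1 was not that of every p53 target. The list median was −0.14 in both sorts.

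Of 10 targets in metabolism, autophagy and secretion 4 were lower in LLC in each sort, where 5.91% and 6.58% of all genes were. Among EGFP-low cells 1 was higher, where 4.76% of all genes were. Lif, a cytokine of the interleukin-6 family, was lower, with differences of −5.81 and −5.51 (limma adjusted p = 0.000366 and 0.000459), with 4.76 and 4.37 in LLC high against 10.59 and 10.16 in colon26 high. Thbs1, the matrix protein thrombospondin 1, was lower at −5.83 and −5.31 (adjusted p = 0.00332 and 0.00492). In LLC high cells both genes were under 5, with Thbs1 at 4.23 and 4.89, so background limits these folds. Eda2r, a receptor of the TNF family, was called in both sorts, with 4.17 and 4.30 in LLC high against 7.58 and 7.45 in colon26 high. Its 4 LLC arrays lay under 5 and it was tested through colon26 alone, so no size is given. Dram1, a lysosomal protein of autophagy, was lower among EGFP-high cells at −2.40 (adjusted p = 0.00488). Ddit4, an inhibitor of mTORC1, was the one higher in LLC, by 2.90 among EGFP-low cells (adjusted p = 0.023). The list medians were −0.54 and −1.01. Of 14 upstream kinases, ligases and cofactors 0 were called between the lines in limma in either sort, with 1 at an unadjusted p under 0.05 in each, and medians of 0.02 and 0.36.

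Between EGFP-high and EGFP-low cells the list with most calls was that of the genes p53 represses. Of 15 genes that p53 is known to repress through p21 and the DREAM complex, 14 rose in LLC, where 4.24% of all genes rose. In colon26 12 rose, where 1.74% of all did. When the lines were averaged 14 rose, where 6.27% of all genes rose over both. The median change of the 15 over both lines was 1.59. The 4 with the smallest p were Cdk1 (1.76), the kinase of mitotic entry, Cenpf (1.99), a kinetochore protein, the phosphatase Cdc25c (1.59) and the kinase Aurka (2.09). All are also genes of ordinary mitosis. The cells were sorted on the promoter of Gins1, a replication gene. A rise of genes of cycling cells therefore cannot be told apart from the sort itself, and a part of p53 in it was not tested. Cdk1 was at 11.22 and 11.98 in LLC high against 9.32 and 9.84 in LLC low. Of 14 upstream genes only the checkpoint kinases Chek2 (1.43, limma adjusted p = 0.000948) and Chek1 (1.16, adjusted p = 0.00137) rose over both lines, and both rose in each line.

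**Figure D5:**
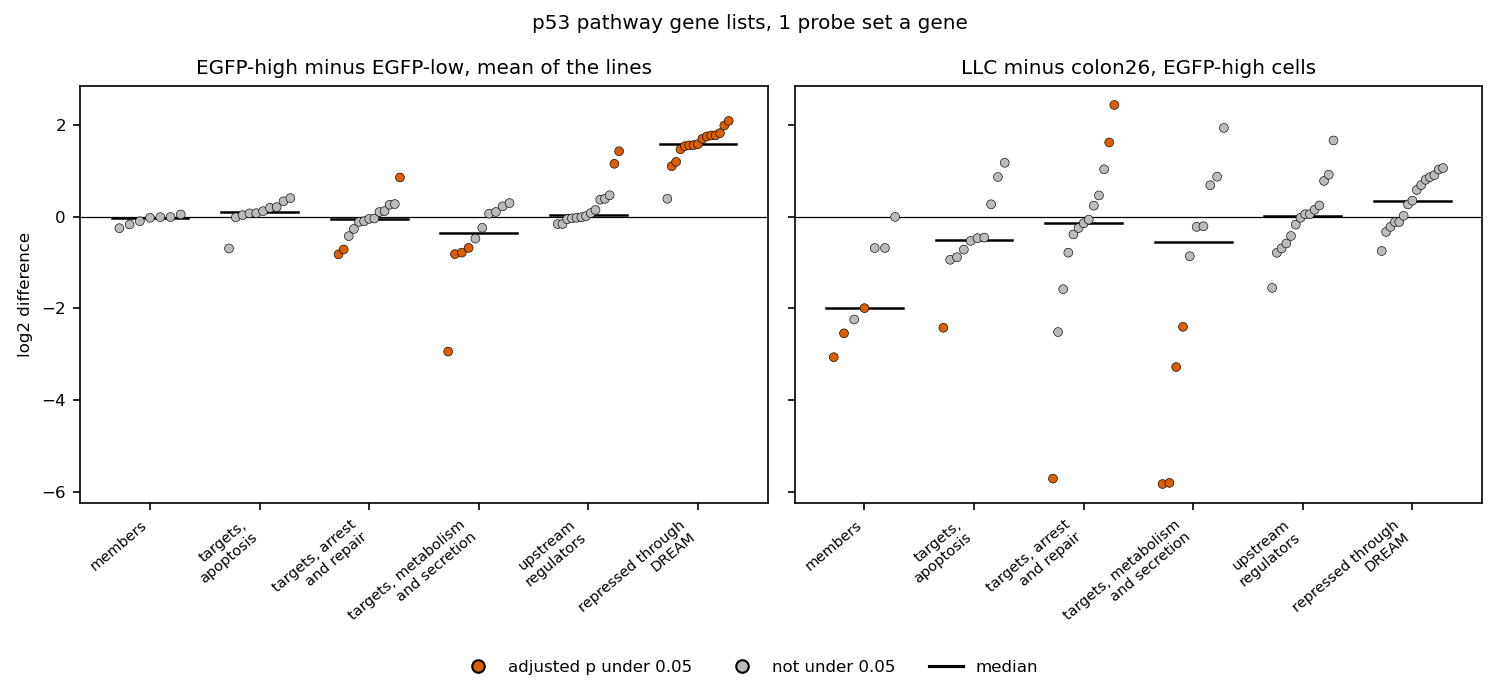
Log2 difference of each tested gene in the members (leading probe set) and 5 pathway lists, for EGFP-high minus EGFP-low as the mean of the lines (left) and LLC minus colon26 among EGFP-high cells (right); coloured points had an adjusted p under 0.05 and bars are medians. The members lie near 0 on the left, with 0 of 7 genes called, and 3 of 7 were called lower on the right.

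Some p53 targets outside the 10 genes changed with the sort. Of all genes, 4.24% were higher and 5.36% lower in LLC high cells, and 1.74% higher and 1.36% lower in colon26 high cells. Of 13 arrest and repair targets in LLC, Gadd45a fell by 2.07 and Btg2, an antiproliferative gene, by 1.23 (limma adjusted p = 0.000543 and 0.00501), and Gtse1, a mitotic regulator of p53, rose by 1.05 (adjusted p = 0.0356). In colon26 0 of the 13 were called in limma, with 2 at an unadjusted p under 0.05. Of 10 in metabolism and secretion, Dram1 fell by 1.73, Igfbp3 by 2.09, Thbs1 by 1.08 and Lif by 0.82 in LLC (adjusted p from 0.00107 to 0.0196), and Igfbp3, an IGF binding protein, fell by 3.80 in colon26 (adjusted p = 4.63e-05). In LLC high cells Igfbp3 was at 4.93 and 5.14, Thbs1 at 4.23 and 4.89 and Lif at 4.76 and 4.37. Igfbp3 was at 5.57 and 4.94 in colon26 high cells, so background limits the size of the falls of these 3 genes. Of 10 in apoptosis Siva1 alone was called, higher in LLC high cells by 0.73 (adjusted p = 0.0446). The fibroblast and macrophage sums given above were lower in the same EGFP-high arrays, and their part in these falls was not tested. The list medians over both lines were 0.10 for apoptosis, −0.04 for arrest and repair and −0.36 for metabolism and secretion, beside 0.04 over all genes.

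The genes whose profile over the 8 arrays was closest to that of Cdkn1a 1424638_at were Prickle1, Krt12 and Cpne5. After each profile was centred on its mean, their mean absolute log2 differences from Cdkn1a were 0.12, 0.15 and 0.15. Their LLC signals lay between 3.15 and 4.70, under the filter level.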

How the data were processed

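Total RNA (6 ug) from sorted cells was labelled with biotin and hybridised to 1 Affymetrix array a sample, per the labels' protocols. The deposited values are log2 signals per probe set made with RMA, per the submitters' processing notes; no source used here gives the software version or which arrays were run together. Probe sets were named from GEO's platform annotation: 34945 had 1 gene symbol, 932 several and 9160 none, and 64 were controls. Those with 1 symbol and a log2 signal above 5 in at least 2 arrays (21773) were tested with limma 3.58.1 in R 4.3.3, with Benjamini-Hochberg adjustment over all of them and a threshold of 0.05. EGFP-high and EGFP-low cells were compared with the pair (line and replicate number) as a block, and the lines from 4 group means without one. The labels number the samples but do not say what a number shares. Same-numbered samples deviated together from their group means (r = 0.913 in LLC and 0.869 in colon26, and 0.842 and 0.751 between the lines in EGFP-high and EGFP-low cells). With 2 arrays a group the number of arrays limits the precision. All member probe sets are described. Of other lists, up to 4 called genes with the smallest p were named. The members and lists were chosen with earlier results of these data known. The fits were tested on simulated data with known changes. For the lines these data held independent noise, without the deviations that same-numbered arrays share here, so they cannot show how the line fit behaves with them. Figures were drawn with Python 3.11.15 and matplotlib 3.10.9. Alternatives were other filters, quantile normalization, median centring, 1 probe set a gene, a trended prior, the other block setting and leaving out each array.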

Additional observations from a re-analysis of the deposited data

Results flagged for a closer look

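At 4 of the 15 member probe sets tested, both LLC pairs moved one way and both colon26 pairs the other. Trp53inp1 1416927_at, under the filter level and not tested, had this pattern too. The log2 change (EGFP-high minus EGFP-low) in LLC minus that in colon26 was −0.37 at Mdm2 1423605_a_at (limma adjusted p = 0.558), −0.64 at Mdm2 1427718_a_at (0.327), −0.92 at Mdm4 1460542_s_at (0.173) and 1.11 at Mdm4 1458223_at (0.228), so the test of the difference was not passed at any of the 4. The Mdm4 probe sets had opposite signs.

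For Gadd45a and Dram1 the test of the difference itself was passed. Gadd45a was at 7.71 and 8.45 in LLC high against 9.48 and 10.82 in LLC low, and at 5.56 and 5.71 in colon26 high against 5.02 and 4.95 in colon26 low, a difference in change of −2.72 (limma adjusted p = 0.00467). Dram1 was at 6.40 and 6.45 in LLC high against 7.88 and 8.41 in LLC low, and at 8.80 and 8.84 in colon26 high against 8.86 and 8.46 in colon26 low, a difference in change of −1.89 (limma adjusted p = 0.0221).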

How the results depend on the processing

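The 0 calls among members between EGFP-high and EGFP-low cells stayed at 0 in LLC, in colon26, over both lines and for the difference between lines under all alternatives run. With no replicate block, the adjusted p was 1 for all 60 values, in fits that called 0 probe sets in limma, with 1097 in LLC and 563 in colon26 at an unadjusted p under 0.05. Between the lines, the count of members called among EGFP-high cells was 5 in the fit reported. It was 3 of 7 with 1 probe set a gene, where 11.3% of all genes were called. With the replicate block it was 12, where 34.9% of all probe sets were called, in either direction. Among EGFP-low cells the count was 6 in the fit reported. It was 3 of 7 with 1 probe set a gene, where 14% of all genes were called. With the replicate block it was 11, where 42.7% of all probe sets were called. Some calls were lost with 1 array left out, as given above. With an array left out, the lone array of its group is assumed to vary like the other groups. Median centring moved the median of all probe sets among EGFP-low cells to 0.19, LLC minus colon26. There 4 of 14 members were called, where 10.2% of all probe sets were. Of single values under the alternatives, 1113 kept their direction and side of the threshold, 46 lost their call, 13 gained one and 0 called values changed sign. A further 82 values, called in neither fit, changed sign. Signals near 5 limit the folds.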
